A study of Mus musculus with 12 samples.

Results

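Adipokines are the proteins through which fat cells signal to other tissues, and the genes described here are 8 of these secreted factors together with the receptors for adiponectin, the best known of them. The 10 genes were chosen by name: Adipoq, Retn, Rbp4, Rarres2, Nampt, Apln, Hp, Lcn2, Adipor1 and Adipor2. Of these, 9 were found by symbol among the 18255 genes listed in the series, 7 secreted factors and 2 receptors, and all 9 entered the tests. Rbp4, which encodes a retinol carrier, had no row in any of the 12 tables and was not analysed here.

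Murine 3T3-L1 cells, a preadipocyte line that turns into fat cells on hormonal induction, were profiled by RNA sequencing in 4 groups of 3 libraries. LIGHT-Diff and NC-Diff were LIGHT (tnfsf14) overexpressing cells and control cells after differentiation into beige adipocytes, and LIGHT-Undiff and NC-Undiff were the same lines before it. Differentiation began with 48 h in serum medium that held 1 µM rosiglitazone, indomethacin and 5 µg/ml insulin as well as 0.5 mM IBMX, 2 µg/ml of the glucocorticoid dexamethasone and 1 nM tri-iodothyronine. The medium then kept insulin, tri-iodothyronine and rosiglitazone. The labels give the same media for both lines, so rosiglitazone, an agonist of the adipogenic receptor PPARγ, was given to the control cells too. The labels name neither the vector and promoter behind the overexpression nor the day of harvest, nor whether a line was 1 clone or replicates came from separate cultures. The p-values therefore measure only the spread between these libraries, which may be technical.

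Adiponectin, the product of Adipoq, is secreted by mature fat cells as disulfide-linked multimers that are assembled in the endoplasmic reticulum. It acts on liver, muscle and fat itself through AdipoR1, coupled mainly to AMP-activated kinase, and AdipoR2, coupled mainly to PPARα; both receptors also promote ceramide breakdown. Resistin (Retn) in mice is made by fat cells and opposes insulin action, chemerin (Rarres2) attracts immune cells and supports adipogenesis, and visfatin (Nampt) is at the same time the rate-limiting enzyme of NAD salvage. Apelin (Apln) acts on vessels and heart, whereas haptoglobin (Hp) and lipocalin 2 (Lcn2) are acute-phase proteins that bind haemoglobin and bacterial siderophores.

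The libraries held 16334079 to 19686675 expected counts, and 3 counts were worth 0.152 to 0.184 CPM (counts scaled to library size). Tnfsf14, which encodes LIGHT, went against the label in 2 libraries. It had 0, 148 and 122 counts in LIGHT-Diff 1 to 3, 113, 0 and 0 in NC-Diff 1 to 3, 38, 53 and 58 in LIGHT-Undiff and 0, 1 and 0 in NC-Undiff. On the principal component that separated the undifferentiated lines, the library labelled LIGHT-Diff 1 lay at 21.2, near NC-Diff 2 and 3 at 21.9 and 19.4. The library labelled NC-Diff 1 lay at −22.6, near LIGHT-Diff 2 and 3 at −22.3 and −19.4. All libraries stay in their labelled groups below, and the members' results and the list counts that rest on differentiated cells are also given without these 2 libraries, which leaves 2 libraries in each differentiated group.

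Adipocyte markers were high in every differentiated library, whereas most beige markers were at or near 0. The 6 adipocyte markers (Fabp4, Plin1, Cidec, Cd36, Lipe and Slc2a4) summed to 12672 to 17678 CPM in LIGHT-Diff and 12597 to 17840 CPM in NC-Diff, against 25.3 to 50.5 CPM in LIGHT-Undiff and 45.2 to 51.1 CPM in NC-Undiff. Of the 6 beige markers, Ucp1, Cidea, Dio2 and Prdm16 had no more than 6 counts in any library, and Ppargc1a and Elovl3 alone passed the low-count filter. Both rose on differentiation in each line. Ppargc1a, a coactivator of mitochondrial genes, had 125 to 224 counts in LIGHT-Diff and 108 to 184 in NC-Diff, against 15 to 24 in LIGHT-Undiff and 28 to 40 in NC-Undiff (log2 fold change 3.09 ± 0.31 in LIGHT cells and 2.09 ± 0.30 in control cells, edgeR, adjusted p 3.13e-06 and 4.86e-05). Elovl3, a fatty acid elongase gene, had 21 to 25 counts in LIGHT-Diff and 9 to 20 in NC-Diff, and 0 in every undifferentiated library (edgeR, adjusted p 7.94e-05 in LIGHT cells and 0.000192 in control cells). Elovl3 passed the filter only through differentiated libraries, so its rise was bound to follow. In such bulk samples, fewer cells of a type and less RNA per cell cannot be told apart.

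The stretches upstream of Adipoq, Retn, Nampt and Lcn2 are shown because these transcripts all rose on differentiation but differed in how the lines compared. They come from RefSeq promoter windows of build GRCm38.p6, which is not the mm8 build of the deposited tables and had windows for 8 of the 10 genes. For the first 3 they are the 200 bases from −250 to −51 relative to the gene start. All read 5′ to 3′ along the gene. The plus strand holds Adipoq at chr16:23146286-23146485, Retn at chr8:3655520-3655719 and Nampt at chr12:32820085-32820284. The 30 bases of Lcn2, at chr2:32387937-32387966 on the minus strand, run from −227 to −198 relative to the start. The 200 bases from −250 to −51 overlap an annotated exon there, so only the bases around the match are shown. Capitals mark a motif match.
Adipoq: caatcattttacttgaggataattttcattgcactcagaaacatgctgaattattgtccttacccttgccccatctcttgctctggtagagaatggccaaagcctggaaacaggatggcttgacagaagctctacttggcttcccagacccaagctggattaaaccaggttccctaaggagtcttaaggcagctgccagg
Retn: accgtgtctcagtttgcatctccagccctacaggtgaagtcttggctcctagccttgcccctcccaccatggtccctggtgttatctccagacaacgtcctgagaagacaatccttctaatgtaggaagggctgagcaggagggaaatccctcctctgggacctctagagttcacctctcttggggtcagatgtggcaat
Nampt: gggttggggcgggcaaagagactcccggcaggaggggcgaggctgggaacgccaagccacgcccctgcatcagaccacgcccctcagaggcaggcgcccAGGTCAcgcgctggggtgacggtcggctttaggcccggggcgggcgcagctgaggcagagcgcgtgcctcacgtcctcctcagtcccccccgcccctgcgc
Lcn2: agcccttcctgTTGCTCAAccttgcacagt
In Lcn2 the capitals mark TTGCTCAA, a match to the C/EBP pattern TTNNGCAA read on the opposite strand, at −216 to −209. In Nampt they mark AGGTCA, the core motif of nuclear receptor sites, at −151 to −146. Adipoq and Retn held neither, and no member window held GGANNNTCC, the pattern searched as the NF-kB core, or the E-box CACGTG. Other spellings of NF-kB sites were not searched. The Retn stretch holds gggaaatccc, which this pattern misses, so the absence of a match does not mean that no NF-kB site is there. Both strands were searched in the whole window of 300 bases, and the matches did not overlap. The C/EBP pattern was in 2 and AGGTCA in 1 of the 10 member windows, and among all 32851 RefSeq windows a share of 10.8% held the C/EBP pattern, 16.3% AGGTCA, 8.62% the NF-kB core and 7.15% the E-box. No match says only that these letters are not in this window.

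Differentiated cells of both lines carried more of every measured adipokine and receptor transcript. The rise was largest for Adipoq, at 627-fold in LIGHT cells and 506-fold in control cells, and smallest for Adipor1, at 1.25-fold and 1.14-fold. The Adipor1 call in control cells was marginal: its groups overlapped, and it was lost when libraries were scaled by their totals or when any of 5 single libraries was left out. In LIGHT cells 9 of 9 genes rose and 0 fell, where 29.5% of all 12993 tested genes rose and 29.1% fell; in control cells 9 of 9 rose, where 32.2% rose and 31.7% fell (edgeR quasi-likelihood test, adjusted p under 0.05). Without the 2 doubted libraries the counts were again 9 of 9 in each line, where 32.3% rose and 31.9% fell among all genes in LIGHT cells and 35.8% rose and 34.9% fell in control cells. The median log2 fold change of the 9 was 3.52 in LIGHT cells and 3.31 in control cells, against −0.00 and 0.00 over all tested genes. Retn passed the low-count filter only through its differentiated libraries, so its rise was bound to follow; the other 8 were above the filter in 5 or 6 of the 6 undifferentiated libraries.

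**Figure D1:**
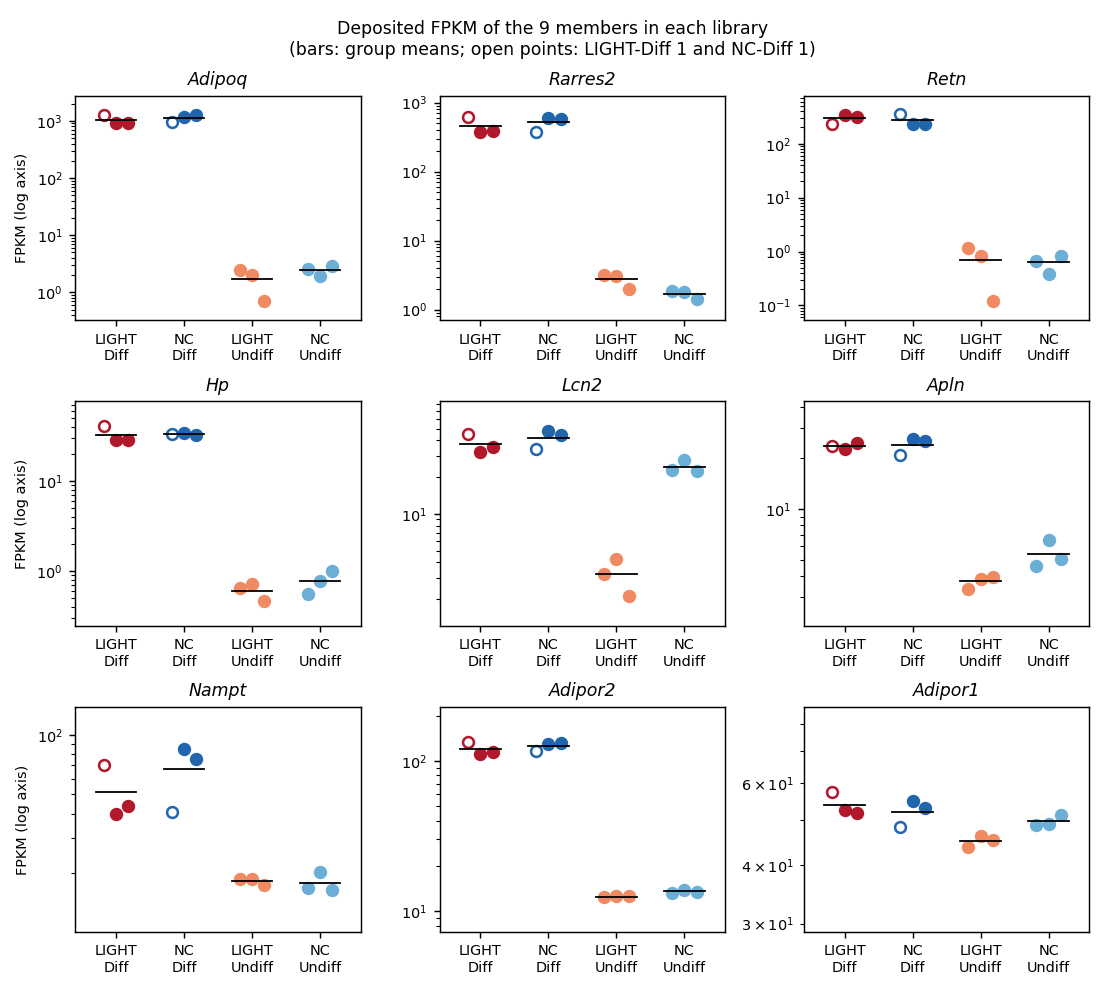
Deposited FPKM (log axis) of the 9 measured genes in each library, by group, with bars at group means and open points for LIGHT-Diff 1 and NC-Diff 1. In 8 of the 9 panels the differentiated groups lie above the undifferentiated ones with no overlap, and in Adipor1 NC-Diff 1 reaches down to the NC-Undiff libraries; Lcn2 is the panel in which the undifferentiated lines stand furthest apart.

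Adipoq was the most abundant member after differentiation. Its level per length was 1268, 933 and 921 FPKM in LIGHT-Diff 1 to 3 and 968, 1168 and 1245 FPKM in NC-Diff 1 to 3, against 2.48, 1.99 and 0.72 FPKM in LIGHT-Undiff and 2.53, 1.91 and 2.86 FPKM in NC-Undiff. No differentiated library came near an undifferentiated one. The log2 fold change was 9.29 ± 0.31 (SE) in LIGHT cells and 8.98 ± 0.31 in control cells (edgeR, adjusted p 1.77e-10 and 1.57e-10), or 9.11 ± 0.14 and 9.12 ± 0.14 without the 2 doubted libraries.

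Rarres2, the chemerin gene, was second. Its FPKM was 621, 379 and 388 in LIGHT-Diff 1 to 3 and 378, 604 and 586 in NC-Diff 1 to 3, against 3.22, 3.03 and 2.01 in LIGHT-Undiff and 1.89, 1.81 and 1.44 in NC-Undiff. The library labelled LIGHT-Diff 1 sat with NC-Diff 2 and 3, and NC-Diff 1 with LIGHT-Diff 2 and 3. The log2 fold change was 7.40 ± 0.32 in LIGHT cells and 8.38 ± 0.34 in control cells (edgeR, adjusted p 1.44e-09 and 6.97e-10), or 7.11 ± 0.10 and 8.60 ± 0.10 without those 2 libraries. In 2 undifferentiated libraries its estimated count was not whole, as happens when a read is shared out between genes.

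Retn, the resistin gene, came next and ran the other way within the differentiated libraries. It had 236, 339 and 319 FPKM in LIGHT-Diff 1 to 3 and 350, 229 and 234 FPKM in NC-Diff 1 to 3. In undifferentiated cells it was close to the limit of detection, with 9, 7 and 1 counts in LIGHT-Undiff and 5, 3 and 6 counts in NC-Undiff. The log2 fold change was 8.75 ± 0.33 in LIGHT cells and 8.88 ± 0.33 in control cells (edgeR, adjusted p 3.93e-10 and 3.41e-10), on those few counts, or 8.88 ± 0.16 and 8.69 ± 0.17 without the 2 doubted libraries.

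Hp, the haptoglobin gene, rose by 5.81 ± 0.23 on the log2 scale in LIGHT cells and 5.54 ± 0.22 in control cells (edgeR, adjusted p 6.85e-10 and 6.50e-10), or by 5.59 ± 0.16 and 5.57 ± 0.16 without the 2 doubted libraries. It had 40.8, 28.8 and 28.3 FPKM in LIGHT-Diff and 33.2, 34.4 and 32.1 FPKM in NC-Diff, against 0.46 to 0.71 FPKM in LIGHT-Undiff and 0.55 to 1 FPKM in NC-Undiff. Liver is the main source of haptoglobin in the body, and the 6 listed hepatocyte markers together reached no more than 0.871 CPM in any library. Of the 8 hepatocyte markers looked for, Ttr and Tf had no row, and 0 passed the low-count filter. The part of such cells in the Hp result was not tested.

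Apln, the apelin gene, stood at 23.7, 22.5 and 24.5 FPKM in LIGHT-Diff and 20.8, 26.0 and 25.2 FPKM in NC-Diff, against 3.37, 3.83 and 3.96 FPKM in LIGHT-Undiff and 4.59, 6.5 and 5.05 FPKM in NC-Undiff. The groups of the 2 stages did not overlap in either line. Its log2 fold change was 2.73 ± 0.13 in LIGHT cells and 2.28 ± 0.13 in control cells (edgeR, adjusted p 4.45e-09 and 1.36e-08), or 2.70 ± 0.10 and 2.41 ± 0.10 without the 2 doubted libraries. Apelin is also made by endothelial cells, and the 4 listed endothelial markers were at no more than 14 counts in any library. Pecam1 had 6 to 12 counts in LIGHT-Diff and 4 to 14 in NC-Diff, against 0 to 4 in LIGHT-Undiff and 2 to 3 in NC-Undiff, whereas Tek had 0 to 4 counts in each differentiated group, against 9 to 14 in LIGHT-Undiff and 5 to 8 in NC-Undiff. Of the 4, Pecam1 alone passed the low-count filter with all 12 libraries, and it rose in both lines (edgeR, adjusted p 0.0169 in LIGHT cells and 0.0448 in control cells). Pecam1 passed only through differentiated libraries, so that rise was bound to follow. Cdh5 and Kdr had no more than 5 counts in any library. Of the 3 epithelial markers, Krt8 had 26 to 89 counts in LIGHT-Diff and 14 to 129 in NC-Diff, against 1 to 2 in LIGHT-Undiff and 0 to 5 in NC-Undiff. Krt18 had 10 to 51 counts in LIGHT-Diff and 10 to 47 in NC-Diff, and 0 in every undifferentiated library, and Cdh1 had no more than 1 in any. The sum of the 7 was 2.99 to 9.47 CPM in LIGHT-Diff and 1.93 to 11.6 CPM in NC-Diff, against 0.698 to 1.24 CPM in LIGHT-Undiff and 0.874 to 1.10 CPM in NC-Undiff, so the keratin genes made up most of its increase. Their part in the Apln result was not tested.

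Nampt was already well expressed before differentiation and rose least of the secreted factors in LIGHT cells. Its FPKM was 70.6, 40.0 and 43.5 in LIGHT-Diff 1 to 3 and 40.8, 84.6 and 75.5 in NC-Diff 1 to 3, against 18.8, 18.6 and 17.5 in LIGHT-Undiff and 16.9, 20.3 and 16.5 in NC-Undiff. The differentiated libraries fell into a low and a high set that cut across the labels, with LIGHT-Diff 1 high and NC-Diff 1 low. The log2 fold change was 1.56 ± 0.27 in LIGHT cells and 2.02 ± 0.27 in control cells (edgeR, adjusted p 0.000269 and 2.89e-05), or 1.24 ± 0.07 and 2.32 ± 0.07 without those 2 libraries.

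Lcn2, the lipocalin 2 gene, rose far more in LIGHT cells, where it started lower. It had 45.0, 32.2 and 35.3 FPKM in LIGHT-Diff and 33.8, 47.7 and 44.8 FPKM in NC-Diff, against 3.23, 4.30 and 2.12 FPKM in LIGHT-Undiff and 22.9, 27.5 and 22.5 FPKM in NC-Undiff. The LIGHT-Undiff libraries stood apart below all others. The log2 fold change was 3.52 ± 0.22 in LIGHT cells and 0.89 ± 0.18 in control cells (edgeR, adjusted p 4.13e-08 and 0.000880), or 3.36 ± 0.15 and 1.07 ± 0.12 without the 2 doubted libraries.

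**Figure D2:**
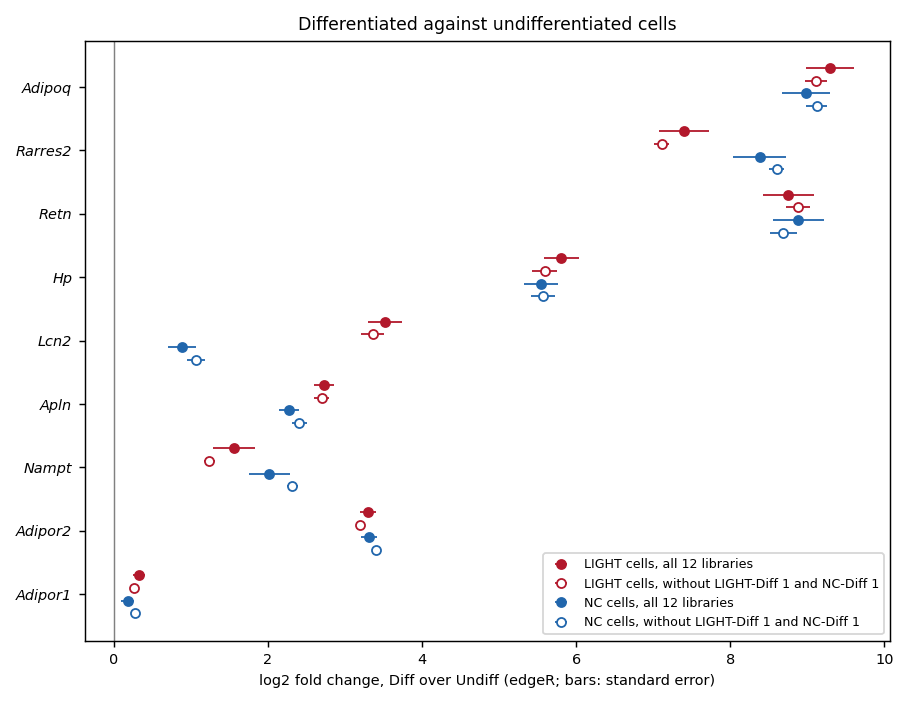
Log2 fold change of differentiated over undifferentiated cells (horizontal axis, edgeR, bars are standard errors) in LIGHT and NC cells, with filled points from all 12 libraries and open points without LIGHT-Diff 1 and NC-Diff 1. All points lie right of 0; Lcn2 is the gene whose LIGHT value (3.52) and NC value (0.89) lie furthest apart, and Rarres2 and Nampt separate between lines when the 2 libraries are left out.

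Of the adiponectin receptors, Adipor2 rose and Adipor1 changed little. Adipor2 had 134, 111 and 114 FPKM in LIGHT-Diff and 116, 130 and 131 FPKM in NC-Diff, against 12.3, 12.5 and 12.5 FPKM in LIGHT-Undiff and 13.2, 13.9 and 13.4 FPKM in NC-Undiff. Its log2 fold change was 3.30 ± 0.10 in LIGHT cells and 3.31 ± 0.10 in control cells (edgeR, adjusted p 6.69e-11 and 5.57e-11), or 3.19 ± 0.05 and 3.40 ± 0.05 without the 2 doubted libraries. Adipor1 had 57.2, 52.6 and 51.7 FPKM in LIGHT-Diff and 48.3, 54.9 and 52.9 FPKM in NC-Diff, against 43.8, 46.2 and 45.2 FPKM in LIGHT-Undiff and 48.6, 49.1 and 51.1 FPKM in NC-Undiff. The highest library of Adipor1 was 1.31-fold above the lowest, the narrowest range of the 9 genes, against 10.9-fold for Adipor2. The log2 fold change of Adipor1 was 0.33 ± 0.08 in LIGHT cells and 0.18 ± 0.08 in control cells (edgeR, adjusted p 0.00243 and 0.0473). In control cells the groups overlapped, and the call was lost when libraries were scaled by their totals (0.07, adjusted p 0.340) or when NC-Undiff 1, 2 or 3 or NC-Diff 2 or 3 was left out (adjusted p 0.128, 0.120, 0.0508, 0.122 and 0.106). When the 2 doubted libraries were left out it was 0.27 in control cells (adjusted p 7.01e-05) and 0.26 ± 0.05 in LIGHT cells.

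The unequal rise turned round which receptor transcript was the more abundant. The ratio of Adipor2 to Adipor1 FPKM within a library was 2.35, 2.11 and 2.21 in LIGHT-Diff and 2.4, 2.37 and 2.47 in NC-Diff, against 0.281, 0.271 and 0.277 in LIGHT-Undiff and 0.271, 0.283 and 0.263 in NC-Undiff. The 2 stages did not overlap. The mean log2 ratio was 3.08 higher in the 6 differentiated than in the 6 undifferentiated libraries (exact permutation test, two-sided, p 0.00216, the smallest that 6 against 6 allows). That p-value adds no separate support, because the unequal rise of the 2 receptors had been seen in these same libraries. It also treats the libraries of both lines as 6 against 6 independent units. The ratio does not depend on library scaling, and the 2 doubted libraries lay among the others of their stage.

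**Figure D3:**
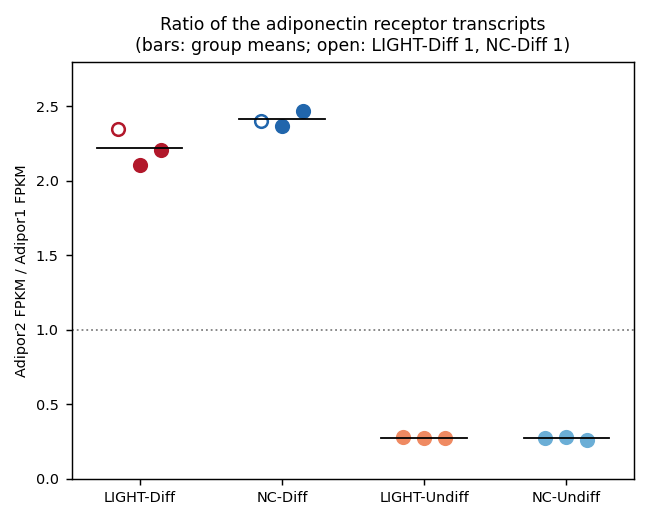
Ratio of Adipor2 to Adipor1 FPKM in each library (vertical axis, linear) by group, with bars at group means and open points for LIGHT-Diff 1 and NC-Diff 1. Differentiated libraries lie at 2.11 to 2.47 and undifferentiated ones at 0.263 to 0.283, on either side of the dotted line at a ratio of 1.

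The make-up of the secreted set changed with stage. The 7 secreted factors summed to 1759 to 2306 FPKM in LIGHT-Diff and 1825 to 2242 FPKM in NC-Diff, against 26.9 to 33.3 FPKM in LIGHT-Undiff and 50 to 59.2 FPKM in NC-Undiff. Adipoq made up 52.4% to 55.0% of the sum in LIGHT-Diff and 53.1% to 55.5% in NC-Diff, against 2.68% to 7.54% in LIGHT-Undiff and 3.22% to 5.71% in NC-Undiff. In undifferentiated cells Nampt held 55.9% to 65.1% of the sum in LIGHT-Undiff and 32.9% to 34.3% in NC-Undiff, where Lcn2 held the largest share with 44.8% to 46.5%, against 7.88% to 12.9% in LIGHT-Undiff. A lower Lcn2 raises the share of every other factor, so the shares of the undifferentiated lines are not independent of each other.

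By FPKM the order after differentiation was Adipoq, Rarres2, Retn and Adipor2 in both lines, each separated from the next with no overlap between libraries. Below them Adipor1, Nampt, Lcn2 and Hp overlapped with their neighbours in LIGHT-Diff, at group means of 53.8, 51.3, 37.5 and 32.6 FPKM, and Apln came last at 23.6 FPKM. In NC-Diff the means were 67.0 FPKM for Nampt and 52.0 FPKM for Adipor1, which overlapped, then 42.1 for Lcn2 and 33.3 for Hp, which overlapped too, and 24.0 for Apln. Before differentiation Adipor1 led both lines, with 45.1 FPKM in LIGHT-Undiff and 49.6 FPKM in NC-Undiff. Lcn2 ranked 5 of 9 in LIGHT-Undiff at 3.22 FPKM, within the spread of Apln and Rarres2, but 2 of 9 in NC-Undiff at 24.3 FPKM, separated from both neighbours. Retn and Hp were the lowest in either line and overlapped.

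Before differentiation, LIGHT cells held less of 2 secreted factors than control cells. Lcn2 was 6.98-fold lower and Apln 1.43-fold lower. With all 12 libraries in the fit 0 of the 9 genes were higher and 2 lower, where 12.3% of all tested genes were higher and 14.2% lower; 7 did not pass. Lcn2 averaged 2.60 ± 0.740 CPM in LIGHT-Undiff and 18.2 ± 1.64 CPM in NC-Undiff (SD, n = 3 each), a log2 fold change of −2.80 ± 0.22 (edgeR, adjusted p 8.50e-06), and was lower in 3 of 3 libraries. Apln averaged 10.9 ± 0.815 CPM in LIGHT-Undiff and 15.5 ± 2.81 CPM in NC-Undiff, a log2 fold change of −0.51 ± 0.14 (edgeR, adjusted p 0.0164). The Apln groups did not overlap, but the call rested on single libraries: it was lost without NC-Undiff 2 (−0.36, adjusted p 0.0774) or LIGHT-Undiff 1 (−0.45, adjusted p 0.0676).

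Rarres2 was at 1.76 ± 0.457 CPM in LIGHT-Undiff and 1.03 ± 0.187 CPM in NC-Undiff, a log2 difference of 0.76 ± 0.50 that did not pass with all 12 libraries (edgeR, adjusted p 0.282). Leaving out the 2 doubted differentiated libraries, which leaves the undifferentiated libraries as they were but changes the spread shared in the fit, gave 0.77 ± 0.23 (adjusted p 0.00997). In that fit 1 of 9 genes was higher and 2 lower before differentiation, where 22.3% of all genes were higher and 22.1% lower. Nampt, with 78.4 ± 3.76 CPM in LIGHT-Undiff and 75.6 ± 8.51 CPM in NC-Undiff, and Adipoq, with 1.83 ± 0.979 CPM and 2.51 ± 0.508 CPM in the same order, overlapped between the lines. Adipor1 and Adipor2 were 1.09-fold and 1.06-fold lower in LIGHT-Undiff without overlap, and neither passed (edgeR, adjusted p 0.256 and 0.533).

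Some markers of other cells were lower along with Lcn2 in LIGHT-Undiff, whereas others were not. Neutrophils store lipocalin 2, and of the 6 listed neutrophil markers S100a8 alone passed the low-count filter. S100a8 had 0 to 4 counts in LIGHT-Undiff and 9 to 11 in NC-Undiff, and was lower in LIGHT cells (log2 −2.91, edgeR, adjusted p 0.0148). Among the others Ltf, Mpo, Elane and Ngp had no more than 1 count in any undifferentiated library and Camp no more than 4, and the list summed to 0.0524 to 0.215 CPM in LIGHT-Undiff and 0.618 to 0.874 CPM in NC-Undiff. The 6 listed leukocyte markers summed to 2.04 to 2.25 CPM in LIGHT-Undiff and 4.05 to 4.73 CPM in NC-Undiff, with Lyz2 at 5 to 10 counts in LIGHT-Undiff and 35 to 39 in NC-Undiff and Cd68 at 6 to 9 and 18 to 26 in the same order. Lyz2 had no more than 5 counts in any differentiated library. It passed the low-count filter only through NC-Undiff, where it was high, so its lower value in LIGHT-Undiff was bound to follow. The pan-leukocyte gene Ptprc ran the other way from Lyz2 and Cd68, with 4 to 11 counts in LIGHT-Undiff and 0 to 2 in NC-Undiff. It entered the test only without the 2 doubted libraries, and only through LIGHT-Undiff, where it was high. Its call as higher in LIGHT cells was therefore bound to follow (log2 2.87 ± 1.01, edgeR, adjusted p 0.0275). Csf1r, another of the leukocyte markers, overlapped between the lines, at 9 to 18 counts in LIGHT-Undiff and 12 to 21 in NC-Undiff. In differentiated cells the neutrophil list summed to 1.04 to 1.93 CPM in LIGHT-Diff and 1.88 to 2.48 CPM in NC-Diff. The preadipocyte markers summed to 2273 to 2380 CPM in LIGHT-Undiff and 1731 to 1835 CPM in NC-Undiff. The part of any of these in the Lcn2 result was not tested.

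After differentiation, what the lines showed depended on the 2 libraries whose Tnfsf14 goes against their labels. With all 12 libraries 0 of the 9 genes differed between LIGHT-Diff and NC-Diff, and all 9 overlapped. Among all genes 0% were higher and 0% lower in edgeR, with 523 of 12993 at an unadjusted p under 0.05, and DESeq2 called 1. The largest difference was that of Nampt, at 232 ± 82.9 CPM in LIGHT-Diff and 308 ± 110 CPM in NC-Diff (SD, n = 3 each), a log2 fold change of −0.41 ± 0.26 (edgeR, adjusted p 0.913).

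**Figure D4:**
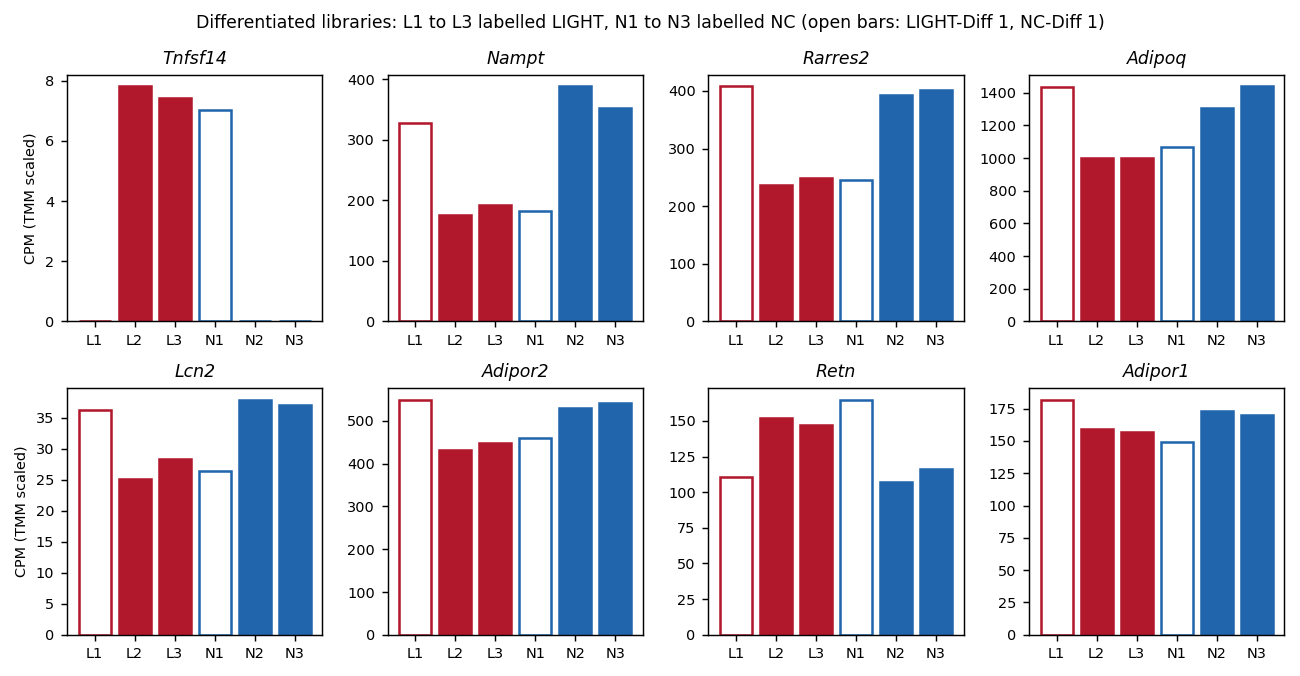
CPM scaled by TMM (vertical axes, linear from 0) of Tnfsf14 and 7 members in the 6 differentiated libraries, L for LIGHT and N for NC, with open bars for LIGHT-Diff 1 and NC-Diff 1. For Nampt, Rarres2, Adipoq, Lcn2 and Adipor2 the library labelled LIGHT-Diff 1 is high, near NC-Diff 2 and 3, and the one labelled NC-Diff 1 is low, near LIGHT-Diff 2 and 3; Retn shows the reverse.

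Without those 2 libraries, LIGHT cells carried less of 4 secreted factors and of 1 receptor and more resistin transcript. Then 5 of the 9 genes were lower and 1 higher, where 16.4% of all 13150 tested genes were lower and 14.6% higher, on 2 libraries a group. The 2 were left out for their Tnfsf14, not for these genes, but the same libraries also stood apart over all genes.

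Nampt was 2.02-fold lower, at 186 ± 11.6 CPM in LIGHT-Diff and 376 ± 25.6 CPM in NC-Diff (SD, n = 2 each; log2 −1.02 ± 0.08, edgeR, adjusted p 1.51e-08). Rarres2 was 1.65-fold lower, at 245 ± 9.20 CPM in LIGHT-Diff and 403 ± 5.44 CPM in NC-Diff (log2 −0.72 ± 0.06, adjusted p 9.58e-08). Lcn2 was 1.41-fold lower, at 27.0 ± 2.33 CPM in LIGHT-Diff and 38.0 ± 0.579 CPM in NC-Diff (log2 −0.50 ± 0.13, adjusted p 0.00764). These are the visfatin, chemerin and lipocalin 2 genes, and in each both LIGHT-Diff libraries lay below both NC-Diff libraries. Adipoq was 1.38-fold lower, at 1011 ± 0.0771 CPM in LIGHT-Diff and 1395 ± 95.9 CPM in NC-Diff (log2 −0.47 ± 0.10, adjusted p 0.00101). Retn was 1.33-fold higher, at 151 ± 3.81 CPM in LIGHT-Diff and 113 ± 6.37 CPM in NC-Diff (log2 0.42 ± 0.09, adjusted p 0.00139). Resistin was the 1 called adipokine transcript that was higher in LIGHT cells, while adiponectin was lower. The ratio of Retn to Adipoq FPKM was 0.186, 0.364 and 0.346 in LIGHT-Diff 1 to 3 and 0.361, 0.196 and 0.188 in NC-Diff 1 to 3, so the 2 doubted libraries again sat with the other line.

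Adipor2 was 1.22-fold lower, at 445 ± 11.1 CPM in LIGHT-Diff and 544 ± 7.80 CPM in NC-Diff (log2 −0.29 ± 0.05, edgeR, adjusted p 0.000250). Adipor1, at 160 ± 1.23 CPM in LIGHT-Diff and 174 ± 2.30 CPM in NC-Diff, did not pass (log2 −0.12 ± 0.06, adjusted p 0.0965). Hp (log2 −0.30 ± 0.12, adjusted p 0.0557) and Apln (log2 −0.20 ± 0.10, adjusted p 0.119) did not pass either, although their groups of 2 did not overlap.

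**Figure D5:**
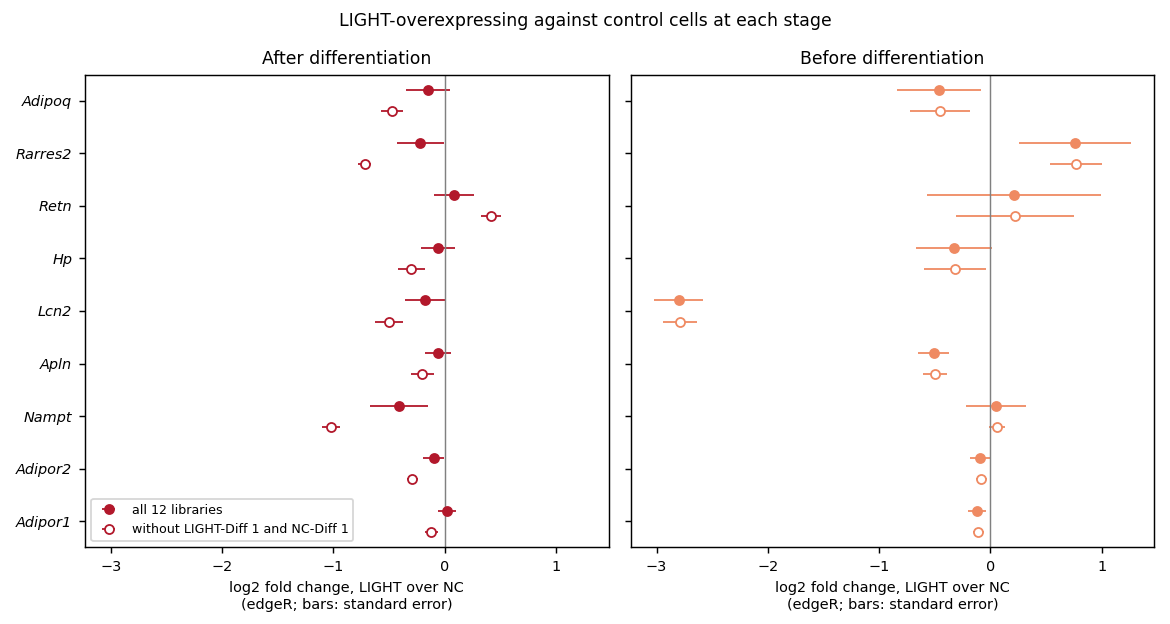
Log2 fold change of LIGHT over NC cells (horizontal axes, edgeR, bars are standard errors) after and before differentiation, filled points from all 12 libraries and open points without LIGHT-Diff 1 and NC-Diff 1. After differentiation the open points of Nampt, Rarres2, Lcn2, Adipoq and Adipor2 move left and that of Retn right; before differentiation filled and open points nearly coincide, with Lcn2 at −2.80 and −2.79.

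Other adipocyte genes shifted along with these members. The adipocyte markers summed to 12672 and 13088 CPM in LIGHT-Diff 2 and 3 and to 16833 and 17840 CPM in NC-Diff 2 and 3, and 4 of the 6 were lower in LIGHT-Diff without the 2 libraries. Among all genes tested in that fit 16.4% were lower and 14.6% higher. Slc2a4 had a log2 fold change of −0.92, Fabp4 of −0.67, Lipe of −0.45 and Plin1 of −0.30, while Cd36 (0.14) and Cidec (0.00) did not pass. The preadipocyte markers summed to 1353 and 1312 CPM in LIGHT-Diff 2 and 3 and to 1052 and 1105 CPM in NC-Diff 2 and 3, a sum of which Dlk1 made up the larger share. Without the 2 libraries 2 of these 6 were higher in LIGHT-Diff, Pdgfra (log2 1.34) and Dlk1 (0.22), and 2 lower, Ly6a (−0.66) and Thy1 (−0.23). The part of these shifts in the member differences was not tested.

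Whether differentiation changed a gene differently in the 2 lines was tested by the interaction of line and stage. With all 12 libraries 1 of 9 genes passed, Lcn2, whose log2 rise was larger in LIGHT cells than in control cells by 2.62 ± 0.29 (edgeR, adjusted p 0.000307), where 5.08% of all genes had a positive and 4.26% a negative interaction. Without the 2 doubted libraries 4 of 9 passed, where 14.9% of all genes were positive and 16.1% negative. Lcn2 stayed positive at 2.30 ± 0.20 (adjusted p 1.09e-07). Rarres2 rose less in LIGHT cells (log2 difference −1.49 ± 0.24, adjusted p 8.98e-05), as did Nampt (−1.08 ± 0.11, adjusted p 3.35e-07) and Adipor2 (−0.21 ± 0.07, adjusted p 0.0300). For Adipoq (−0.01 ± 0.34) and Retn (0.19 ± 0.57) the interaction was small beside its error.

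Genes that handle adiponectin were listed too, and with all 12 libraries 0 genes of any list below differed between the lines after differentiation. The counts on differentiation stand beside 29.5% of all tested genes that rose and 29.1% that fell in LIGHT cells and 32.2% and 31.7% in control cells, or 32.3% and 31.9% in LIGHT cells and 35.8% and 34.9% in control cells without the 2 doubted libraries. Counts between the lines before differentiation, with all 12 libraries, stand beside 12.3% of all tested genes higher in LIGHT cells and 14.2% lower. Those after it, without the 2 doubted libraries, stand beside 14.6% higher and 16.4% lower. In some lists a few genes were under the low-count filter at 1 stage and passed through the other, so their calls on differentiation were bound to follow. Of 10 tested genes for adiponectin folding, modification and assembly, 4 rose and 0 fell on differentiation in LIGHT cells. In control cells 7 rose and 0 fell. The medians were 0.22 in LIGHT cells and 0.38 in control cells on the log2 scale. Without the 2 doubted libraries 6 rose in LIGHT cells and 9 in control cells, and 0 fell in either. P4ha2 and P4ha1, which encode prolyl hydroxylases, rose by 1.32 and 0.79 in LIGHT cells and by 1.12 and 1.01 in control cells. Ero1l, an oxidase of the endoplasmic reticulum that favours adiponectin secretion, rose by 1.89 in LIGHT cells and 2.64 in control cells. Between the lines after differentiation, without the 2 doubted libraries, 6 of the 10 were lower in LIGHT cells and 1 higher. Ero1l was lowest, at 666 CPM in LIGHT-Diff and 1868 CPM in NC-Diff (log2 −1.49 ± 0.09, edgeR, adjusted p 4.66e-10), followed by P4ha2 (−0.64) and P4ha1 (−0.48). Before differentiation 0 of the 10 differed with all 12 libraries.

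Downstream of the receptors, 13 of 14 genes were tested, and Ppara, with at most 1 count in any library, was not. On differentiation 7 rose and 1 fell in LIGHT cells, and 8 rose and 3 fell in control cells. Without the 2 doubted libraries 6 rose and 2 fell in LIGHT cells, and 8 rose and 2 fell in control cells. Acer2, an alkaline ceramidase, rose by 6.30 in LIGHT cells and 4.02 in control cells on the log2 scale. It averaged 0.111 CPM in LIGHT-Undiff, under the low-count filter cutoff of 0.587 CPM, so its rise in LIGHT cells was bound to follow. Appl2, an adaptor protein, rose by 1.12 in LIGHT cells and 1.35 in control cells. After differentiation, without the 2 doubted libraries, 3 were higher and 4 lower in LIGHT cells. Cdh13, the T-cadherin that binds adiponectin multimers, was higher at 135 CPM in LIGHT-Diff and 87.9 CPM in NC-Diff (log2 0.62 ± 0.06, edgeR, adjusted p 4.08e-07), as was the acid ceramidase gene Asah1 (0.32), while the adaptor gene Appl1 was lower (−0.40). Before differentiation Camkk2 (−0.23) and Acer2 (−2.41, at 0.111 CPM in LIGHT-Undiff and 0.618 CPM in NC-Undiff) were lower in LIGHT cells and 0 were higher, with all 12 libraries.

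Among the C1q/TNF relatives of adiponectin, 4 of 9 listed genes were tested with all 12 libraries, and on differentiation 2 rose and 1 fell in LIGHT cells and 3 rose and 1 fell in control cells. In the fit without the 2 doubted libraries 5 were tested, and 3 rose and 1 fell in LIGHT cells and 3 rose and 2 fell in control cells. C1qtnf5 rose by 1.58 in LIGHT cells and 1.51 in control cells on the log2 scale and Fam132a by 2.46 and 2.66, whereas C1qtnf1 fell (−1.85 and −1.30). After differentiation, without the 2 doubted libraries, Fam132a was lower in LIGHT cells, at 4.52 CPM in LIGHT-Diff and 11.2 CPM in NC-Diff (log2 −1.31 ± 0.22, edgeR, adjusted p 0.000163). C1qtnf5 was lower too (−0.50) and C1qtnf6 higher (0.51), and of the 5 genes tested in that fit these were the only calls.

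Receptors for the other factors were few. Of 10 listed genes 5 were tested, and on differentiation 1 rose and 3 fell in LIGHT cells and 2 rose and 3 fell in control cells, or 0 rose and 3 fell and 2 rose and 3 fell without the 2 doubted libraries. Cap1, whose product binds resistin in human cells, fell in both (log2 −0.79 in LIGHT cells and −0.76 in control cells). The chemerin receptor gene Cmklr1 and the apelin receptor gene Aplnr stayed under the low-count filter. Slc22a17, reported as a lipocalin 2 receptor, was lower in LIGHT cells after differentiation without the 2 doubted libraries, at 2.58 CPM in LIGHT-Diff and 5.94 CPM in NC-Diff (log2 −1.19 ± 0.27, edgeR, adjusted p 0.00209). Before differentiation 0 of the 5 passed with all 12 libraries.

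In the NAD pathway that Nampt feeds, 6 of 11 tested genes rose and 0 fell on differentiation in LIGHT cells, and 8 rose and 1 fell in control cells. Without the 2 doubted libraries 6 of 12 rose and 2 fell in LIGHT cells, and 9 rose and 1 fell in control cells. Sirt3, a mitochondrial NAD-dependent deacetylase, rose by 0.90 in LIGHT cells and 1.19 in control cells on the log2 scale, and Nnmt, which consumes nicotinamide, by 0.79 and 1.32. After differentiation, without the 2 doubted libraries, 2 of 12 were higher and 3 lower in LIGHT cells, where 14.6% of all tested genes were higher and 16.4% lower. Nnmt was higher (log2 0.43 ± 0.08, edgeR, adjusted p 0.000359), and Nadk2, a mitochondrial NAD kinase, lower (−0.55 ± 0.09, adjusted p 6.27e-05). Before differentiation 2 of 11 were higher, Nnmt (0.67) among them, and 2 lower, Sirt1 (−0.52) and Parp1 (−0.17), with all 12 libraries.

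Rbp4 had no row, but 7 of 10 listed genes of retinoid handling were tested. On differentiation 3 rose and 3 fell in LIGHT cells and 3 rose and 2 fell in control cells, with Rarg, a retinoic acid receptor, lower in both (log2 −1.04 in LIGHT cells and −0.82 in control cells). In LIGHT cells 29.5% of all tested genes rose and 29.1% fell, and in control cells 32.2% rose and 31.7% fell. With the 2 doubted libraries left out, 3 of the 7 rose and 3 fell in each line. Before differentiation 3 of the 7 were higher and 2 lower with all 12 libraries; after it, without the 2, 1 was higher and 2 lower.

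Among other products of fat cells, 16 of 22 listed genes were tested, and the leptin gene Lep was not, with at most 4 counts in any library. On differentiation 11 rose and 3 fell in LIGHT cells and 9 rose and 4 fell in control cells. Without the 2 doubted libraries 10 rose and 3 fell in LIGHT cells and 10 rose and 4 fell in control cells. Some that rose averaged only 0 to 0.494 CPM in LIGHT-Undiff, under the low-count filter cutoff of 0.587 CPM, so their rise in LIGHT cells was bound to follow. The same holds for the fall of a gene that averaged 0.255 CPM in LIGHT-Diff. Agt, which encodes angiotensinogen, rose by 7.39 in LIGHT cells and 7.70 in control cells on the log2 scale, and the lipoprotein lipase gene Lpl by 4.20 and 4.26. Before differentiation, with all 12 libraries, 0 were higher and 3 lower in LIGHT cells, among them the chemokine gene Ccl2 (−1.19) and the lipase inhibitor gene Angptl4 (−0.91). After differentiation, without the 2 doubted libraries, 3 were higher and 5 lower, with Angptl4 at 603 CPM in LIGHT-Diff and 837 CPM in NC-Diff (log2 −0.47 ± 0.06, edgeR, adjusted p 4.75e-06).

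Of 12 transcription factors that are known to act on adipokine genes, 6 rose and 4 fell on differentiation in LIGHT cells and 7 rose and 3 fell in control cells, with the same counts without the 2 doubted libraries. Cebpa, a master regulator of fat cells that also acts on Adipoq, rose by 4.82 in LIGHT cells and 5.48 in control cells on the log2 scale, and Pparg by 3.80 and 3.20. After differentiation, without the 2 doubted libraries, Pparg (log2 −0.37 ± 0.07, edgeR, adjusted p 0.000467), Foxo1 (−0.50) and Cebpb (−0.37) were lower in LIGHT cells and 1 of the 12 was higher. Before it, with all 12 libraries, 4 were higher, Cebpa (0.75) and Cebpd (0.47) among them, and 3 lower, the NF-kB subunit gene Rela (−0.42) among them.

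The genes whose profile over the 12 libraries was most like that of a member were found by the root mean square difference of centred log2 CPM, among 11790 named genes. For Adipoq these were Gpd1 (0.28) and Cd36 (0.29), and for Retn the same 2 in the other order, Cd36 (0.32) and Gpd1 (0.40). Rarres2 was nearest to Agt (0.31) and Tusc5 (0.35), and Hp to Lrg1 (0.26) and Serpina3n (0.30). Nampt lay close to Nupr1 and Gk5 (0.14 each), Apln to Sparcl1 (0.14) and Idh3a (0.17), and Adipor2 to Dgat1 (0.12) and Slc25a10 (0.13). Adipor1, the flattest profile, had Arf1 and Trabd at 0.05 each. Lcn2 had no near neighbour by this measure, with Dusp4 at 0.44 and Prl2c3 at 0.46, the largest distances of the 9. Genes with a large range are farther from all others by this measure, and the profiles share the same libraries and depth.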

How the data were processed

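RNA sequencing tables of 12 libraries, 3 in each of 4 groups named by the labels, were used as the authors deposited them. Per the file headers each table holds an expected count (an estimated number of reads per gene) and an FPKM value per gene, made by the authors library by library. The submitters' processing notes name the build mm8, whereas aligner, counter and strand setting were not given in the sources used here. Expected counts were rounded and tested with edgeR 4.0.16 (limma 3.58.1, R 4.3.3): TMM scaling, filterByExpr with a minimum count of 10, 1 quasi-likelihood fit of all 12 libraries with a coefficient per group, and Benjamini-Hochberg adjustment over all 12993 tested genes with a threshold of 0.05. Standard errors are the fold change over the square root of F. CPM is scaled by TMM. FPKM was used for levels between genes, and the receptor ratio was tested with scipy 1.17.1. Gene models without a name (4.23% to 5.24% of a library's counts) were kept in totals and tests. The fit was tested on simulated data. The members and lists were chosen with earlier results of these data known. Of each list at most the 3 genes with the smallest p in the comparison described are named, with those under the filter, and for each member the 2 most similar profiles. A gene named in 1 comparison is also followed in the others, and some list genes are not reported here. The main fit treated the libraries as unpaired. Between the stages of 1 line, same-numbered libraries correlated weakly across genes, at 0.04 to 0.10. Alternatives were DESeq2 1.42.0, other scalings and filters, fits of 6 libraries, a replicate block and libraries left out. Library depth was 16334079 to 19686675 expected counts, and limits from counts cover counting error only.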

Additional observations from a re-analysis of the deposited data

Results flagged for a closer look

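By the interaction of line and stage in edgeR, the rise on differentiation differed between the lines for 1 of the 9 measured genes with all 12 libraries. Among all tested genes 5.08% had a positive and 4.26% a negative interaction in that fit. Without LIGHT-Diff 1 and NC-Diff 1, 4 of the 9 passed, where 14.9% of all genes were positive and 16.1% negative. Values are on the log2 scale, LIGHT cells minus control cells. Lcn2 rose more in LIGHT cells, by 2.62 with all 12 libraries and by 2.30 without the libraries labelled LIGHT-Diff 1 and NC-Diff 1. Without these 2 libraries Rarres2 (−1.49), Nampt (−1.08) and Adipor2 (−0.21) rose less in LIGHT cells. With all 12 libraries the same differences were −0.99, −0.46 and −0.01 and did not pass.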

How the results depend on the processing

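The 9 calls on differentiation in LIGHT cells held under every alternative run, and in control cells 8 or 9 genes were called. The gene lost there was Adipor1, at 0.07 with library totals, 0.18 with the replicate block, 0.19 in a fit of the 6 libraries and 0.16 to 0.27 leaving out 1 library. Between the lines after differentiation 0 genes were called under every alternative with all 12 libraries or 1 left out, and 6 without LIGHT-Diff 1 and NC-Diff 1 together. The replicate block and library totals, each without that pair and chosen after seeing the data, also gave 6. Before differentiation 2 genes were called, 1 to 2 leaving out 1 library and 4 with library totals without the pair. The interaction had 1 call with all 12 libraries. Without the pair it had 4, also 4 with the replicate block and 3 with library totals. The cause of these shifts was not tested.

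Signs turned round among values that did not pass. After differentiation, leaving out 1 library gave −0.04 to 0.29 for Retn, −0.17 to 0.00 for Apln, −0.29 to 0.04 for Hp and −0.06 to 0.06 for Adipor1. Without the pair Adipor1 was −0.12, with the block −0.12 and with library totals −0.04. Before differentiation Retn ran from −0.33 to 0.72 leaving out 1 library. In the interaction the pair, the block without it and library totals without it gave Retn 0.19, 0.18 and 0.29. Without the pair Adipoq and Adipor1 were −0.01 each, also with the block. Adipor2 was 0.02 with library totals. Leaving out 1 library gave −0.07 to 0.65 for Adipoq, −0.64 to 0.40 for Retn and −0.14 to 0.06 for Adipor2.

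Over all genes, the interaction called 1214 genes, 747 with the replicate block, 675 to 1868 leaving out 1 library and 4077 without the pair. Before differentiation 3446 were called, 5601 in a fit of 6 libraries, 2238 to 4280 leaving out 1 library and 5836 without the pair. After differentiation 0 were called, and 4079 without the pair. Library totals moved the median log2 fold change of control differentiation to −0.113, and the share of higher calls to 42.1% from 50.4%. Without the pair that share was 40.1% against 50.6% for control differentiation, 66.0% against 47.1% between the lines after it and 65.4% against 48.2% for the interaction. Same-numbered libraries correlated at −0.62 to 0.1 in 18 pairs, 0 of them over 0.1. Between the stages of 1 line these correlations were 0.04 to 0.10, against −0.09 to 0.01 for libraries with different numbers. Whether numbers pair libraries within a line was not tested. Retn in undifferentiated cells rests on 1 to 9 counts, which limits every comparison that uses them.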
